A study of Mus musculus with 8 samples.

Results

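Among the 10 genes described here, all but Entpd5 carry nucleosides across membranes, produce adenosine outside the cell, or recycle and degrade purines inside it. The transporters are the concentrative nucleoside transporters Slc28a2, Slc28a1 and Slc28a3 and the equilibrative transporter Slc29a1. The enzymes are the nucleotidase Nt5e, the nucleotidase Entpd5 of the endoplasmic reticulum, and the purine enzymes Ada, Pnp, Adk and Xdh. All 10 were chosen by name with earlier results of these libraries known. The reason was that Slc28a2 and Nt5e moved in opposite directions between conventionalized and germ-free animals. Of the 10, 9 had a row among the 48440 genes of the table. The comparison of conventionalized with germ-free libraries was therefore used in the choice, and the values of the 10 genes in it are given as a description. Where they are counted among the genes called in the fit over all genes, that count stands beside the share of all genes called and is no test of them.

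RNA was measured in Sox9-EGFP Low cells from the jejunum of 8 female mice, which all carried the Sox9-EGFP reporter on a C57BL/6J background and were all raised germ-free. In each of 4 littermate pairs (A to D), 1 animal was moved at 8 to 10 weeks of age to a conventional animal facility, given a slurry of feces from conventional Sox9-EGFP mice by gavage, and studied 2 weeks later (conventionalized, CV, n = 4), while its littermate stayed germ-free (GF, n = 4). Epithelial cells were sorted by flow cytometry for a low level of the reporter, a fraction known to be enriched in stem cells, and dying cells (Annexin-V or Sytox-blue), endothelial cells (CD31) and leukocytes (CD45) were excluded by their stain. Colonization and the move between facilities went together in every pair, so their effects cannot be told apart.

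Purine nucleotides released from cells, or arriving with food and shed cells, are dephosphorylated step by step at the cell surface, and CD73, the product of Nt5e, makes adenosine from AMP in the last step. Nucleosides enter cells through sodium-driven concentrative transporters, which epithelia of the small intestine are known for, and through equilibrative transporters, which let nucleosides pass both ways. Inside the cell, adenosine is phosphorylated back to AMP by Adk or deaminated to inosine by Ada, and inosine is split by Pnp on the way to xanthine and urate, which Xdh makes.

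Each library held RNA from 1 animal, with about 6209041 to 19139763 reads assigned to genes. Levels are given as CPM, the deposited value relative to a common library total after scaling of the libraries to each other, and fold changes as differences in log2(CPM + 0.5), CV minus GF, which understate changes of low genes. Summed stem cell markers ran from 4101 to 8435 CPM in CV libraries and from 596 to 4473 CPM in GF libraries, and summed absorptive enterocyte markers from 670.2 to 3181 CPM in CV and from 995.3 to 3254 CPM in GF. The 9 leukocyte markers summed to 7.42 to 26.1 CPM in CV and 15.2 to 26.0 CPM in GF, with 4 of the 9 at 0 in at least 1 library. The 5 endothelial markers summed to 4.15 to 26.6 CPM in CV and 21.2 to 41.0 CPM in GF, and the 5 fibroblast markers to 0.579 to 4.91 CPM in CV and 3.87 to 19.2 CPM in GF. The GF library of pair C stood apart, with a median correlation of 0.792 with its own group against 0.871 to 0.943 in the other libraries. The CV library of pair A held 50800 CPM of goblet cell markers, against 1569 to 6132 CPM in the other CV libraries. In bulk RNA, fewer cells of a type and less RNA per cell cannot be told apart.

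The sequence of Slc28a2 bears on how far its level can be read, because a close copy lies next to it. Slc28a2 (ENSMUSG00000027219.13, chr2:122426477-122461137, plus strand, mm10) and its neighbour Gm14085 (chr2:122484941-122528040) were 94.8% identical over 1982 aligned coding bases. The first 90 coding bases of each are shown, with the 7 bases that differ in capitals.
Slc28a2: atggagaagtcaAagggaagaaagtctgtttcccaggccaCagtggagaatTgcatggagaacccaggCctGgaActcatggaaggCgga
Gm14085: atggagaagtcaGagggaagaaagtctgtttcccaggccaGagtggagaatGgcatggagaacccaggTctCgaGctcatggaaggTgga
Of the Slc28a2 transcripts, 18.0% of stretches of 100 bases, the length of the reads, also occurred in Gm14085. Gm14085 made up 1.02% to 11.9% of the sum of the pair of genes in the 8 libraries. The sum was 37.0, 59.5, 47.1 and 57.6 CPM in the CV libraries of pairs A to D, against 10.6, 13.8, 10.9 and 8.90 CPM in the GF libraries, and its log2 difference was 2.13, beside 2.19 for Slc28a2 alone. Slc28a1, which prefers pyrimidine nucleosides, and Slc28a3, which takes both kinds, are less alike, with 71.4% and 65.0% of aligned coding bases identical to Slc28a2.

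The 250 bases before the RefSeq start of Slc28a2 (GRCm38.p6, chr2:122426185-122426434, plus strand) are shown, with the composition of the Nt5e window beside them. Capitals mark CCAAT on either strand and the CDX-type CATAAA.
Slc28a2 promoter: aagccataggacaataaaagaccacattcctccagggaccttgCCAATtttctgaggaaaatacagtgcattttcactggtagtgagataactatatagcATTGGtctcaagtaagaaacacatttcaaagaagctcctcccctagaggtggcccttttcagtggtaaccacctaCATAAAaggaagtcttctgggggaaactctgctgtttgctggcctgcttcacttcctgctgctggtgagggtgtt
These 250 bases held no CpG and were 45.2% G or C, and 24.5% of mouse windows had a lower share of G or C. In the 250 bases before the RefSeq start of Nt5e there were 21 CpG and 72.0% G or C. That window begins at chr9:88327359, past the GENCODE start of Nt5e at 88327197, so it lies inside the annotated gene. The Slc28a2 window lies before the GENCODE start of its gene, so the 2 windows are not placed alike. The Entpd5 window held 23 CpG and 61.6% G or C, the Pnp window 11 CpG and 46.8%, and windows of Adk 15 and 24 CpG. A link of composition with the fold changes was not tested. CCAAT occurred at 2 places in the Slc28a2 window, and 33.8% of 32851 mouse windows of the same 250 bases held it. CATAAA occurred at 1 place, against 10.8% of windows. TATAAA (12.4% of windows), CAGATG (14.4%) and ACGTG (16.6%), searched on both strands with no overlap among the motifs found, were absent from both windows, and CCAAT and CATAAA were absent from that of Nt5e. These are matches of letters in a window and say nothing about binding of a factor.

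Among the 4 transporters of the 10 genes, Slc28a2, which takes up purine nucleosides and uridine with sodium, was the one whose CV and GF libraries lay apart. Its level was 36.1, 57.5, 45.5 and 57.0 CPM in the CV libraries of pairs A to D, against 9.83, 12.9, 9.63 and 8.66 CPM in the GF libraries. Every CV library was above every GF library, and the GF libraries were close together. The means were 49.0 ± 10.3 CPM in CV and 10.3 ± 1.84 CPM in GF (SD, n = 4 each), a ratio of 4.78 and a log2 fold change of 2.19 ± 0.282 (SE). The 4 pairs gave log2 differences of 1.82, 2.11, 2.18 and 2.65, so the size was similar in all of them. The gene reached the filter of 10 CPM in 4 libraries through its 4 CV libraries and 1 GF library. Outside the 10 genes, the transporter Slc29a4, which did not reach the filter, also had groups apart, with CV lower. Its means were 5.98 CPM in CV and 16.1 CPM in GF.

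Slc29a1 (ENT1, chr17:45585200-45599606, minus strand), the equilibrative transporter for adenosine and other nucleosides, had the highest level per transcript length of the 4 transporters in both groups. It was at 125.0, 125.2, 116.4 and 183.2 CPM in CV libraries and at 249.8, 190.5, 193.4 and 152.8 CPM in GF libraries of pairs A to D. The groups overlapped, since the pair D animals went the other way from pairs A to C, with the CV library of pair D above its GF littermate. The means were 137.4 ± 30.8 CPM in CV and 196.6 ± 40.0 CPM in GF (SD, n = 4 each), with a log2 fold change of -0.52 ± 0.289. An antisense gene, Gm17080, overlaps Slc29a1, and reads of both cannot be told apart without strand.

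The other concentrative transporters were low in these libraries. Slc28a1 (chr7:81114799-81170416, plus strand) was at 3.53, 0.964, 2.50 and 2.15 CPM in CV libraries and at 7.93, 1.75, 0.921 and 1.26 CPM in GF libraries, from about 8 to 62 reads per library. Slc28a3 (chr13:58545399-58610877, minus strand) was at 16.9, 9.48, 7.01 and 4.29 CPM in CV libraries and at 8.55, 9.05, 8.95 and 7.64 CPM in GF libraries. Neither gene reached the filter, and in both the CV and GF ranges overlapped. Their log2 differences, -0.00 ± 0.601 for Slc28a1 and -0.02 ± 0.416 for Slc28a3 (SE), came from a fit with the minimum lowered to 1 CPM. With errors of this size, a difference of the order seen for Slc29a1 could not be detected in Slc28a1.

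**Figure D1:**
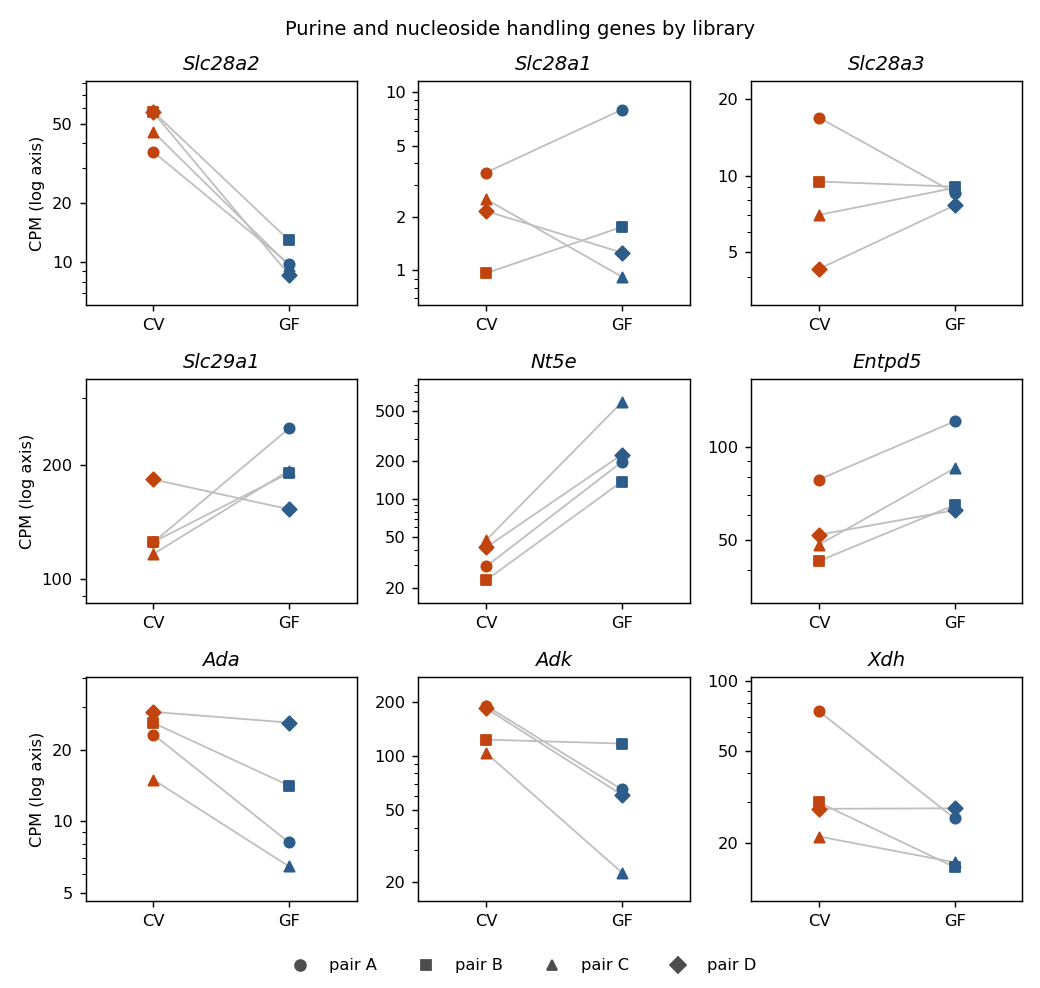
Level of the 9 genes with a row in each library, in CPM on log axes that differ between panels, with CV libraries at the left and GF libraries at the right of each panel. Lines join littermates of pairs A to D, and every CV point lies above every GF point for Slc28a2 and below every GF point for Nt5e.

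Of the surface and secretory nucleotidases, Nt5e was lower in every CV library than in every GF library. Nt5e (ENSMUSG00000032420.7, chr9:88327197-88372092, plus strand) encodes CD73, which releases adenosine from AMP at the cell surface. It was at 29.5, 23.0, 47.6 and 41.7 CPM in the CV libraries of pairs A to D, against 197.7, 138.2, 585.3 and 225.8 CPM in the GF libraries. The GF library of pair C was the highest by far, and the lowest GF library was still well above the highest CV library. The means were 35.5 ± 11.2 CPM in CV and 286.8 ± 202.4 CPM in GF (SD, n = 4 each), which is 8.09 times as much in GF, and the log2 fold change was -2.83 ± 0.409 (SE). The pairs gave log2 differences of -2.72, -2.56, -3.61 and -2.42, and leaving out the GF library of pair C or any other library gave fold changes from -3.14 to -2.41.

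Entpd5 (chr12:84373857-84409029, minus strand), an enzyme of the endoplasmic reticulum that hydrolyses UDP and GDP, showed a smaller difference of the same sign. It was at 78.3, 42.8, 48.3 and 52.0 CPM in CV libraries and at 120.5, 64.8, 85.1 and 62.4 CPM in GF libraries. Each CV library was below its GF littermate, but the groups overlapped because both animals of pair A were high. The means were 55.4 ± 15.8 CPM in CV and 83.2 ± 26.9 CPM in GF (SD, n = 4 each), with a log2 fold change of -0.57 ± 0.302.

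Slc28a2 and Nt5e were chosen for their opposite directions, so a wider separation of the groups by their ratio follows from the choice. The ratio is given as a description. Slc28a2 had 1.22, 2.50, 0.955 and 1.37 times the CPM of Nt5e in the CV libraries of pairs A to D, against 0.0497, 0.0934, 0.0165 and 0.0384 times in the GF libraries. Their longest coding transcripts are of nearly equal length, 3911 and 3995 bases, so the 2 genes were at similar levels in CV libraries and Nt5e was many times higher in GF libraries. The highest ratio in each group was in pair B and the lowest in pair C.

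Within cells, the enzymes that act on adenosine had higher mean levels in CV libraries, with more spread. Adk (chr14:21052574-21448569, plus strand), which phosphorylates adenosine to AMP, was at 190.4, 123.4, 104.0 and 184.2 CPM in CV libraries and at 65.2, 117.4, 22.5 and 60.9 CPM in GF libraries. Only the GF library of pair B reached the CV range, and its littermate was nearly level with it, with a log2 difference of 0.07 against 1.54 to 2.18 in the other pairs. The means were 150.5 ± 43.3 CPM in CV and 66.5 ± 39.0 CPM in GF (SD, n = 4 each), and the log2 fold change was 1.35 ± 0.427. Without the GF library of pair C, where Adk was lowest, it was 0.91, and without that library and the CV library of pair A it was 0.78.

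Ada (chr2:163726584-163750239, minus strand), which deaminates adenosine and deoxyadenosine, was at 23.1, 25.9, 14.9 and 28.8 CPM in CV libraries and at 8.16, 14.1, 6.47 and 25.9 CPM in GF libraries. Each CV library was above its GF littermate, but pair D differed little and its GF library lay within the CV range. The means were 23.2 ± 5.95 CPM in CV and 13.7 ± 8.81 CPM in GF (SD, n = 4 each), with a log2 fold change of 0.90 ± 0.411.

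Xdh (chr17:73883895-73950196, minus strand), which oxidizes hypoxanthine and xanthine to urate, was at 73.9, 29.9, 21.4 and 28.1 CPM in CV libraries and at 25.5, 15.8, 16.5 and 28.2 CPM in GF libraries. The CV library of pair A was far above all others, and the rest of the CV libraries lay within or just above the GF range. The means were 38.3 ± 24.0 CPM in CV and 21.5 ± 6.31 CPM in GF (SD, n = 4 each). The log2 fold change of 0.69 ± 0.379 became 0.29 without the CV library of pair A, the library with the high goblet marker sum, whose part in the result was not tested.

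No row carried the GENCODE M21 identifier of Pnp, which splits inosine and guanosine, and no row is analysed here under its name. The row ENSMUSG00000021871.17 belongs to Gm49342 in GENCODE M21, a gene that overlaps Pnp on the same strand and shares 96.0% of its 31-base stretches with it. The annotation version behind the deposited table is not given in the sources used, and in that version the row may have been Pnp itself. The row was at 238.4, 155.4, 132.8 and 215.1 CPM in CV libraries and at 132.0, 153.4, 64.8 and 57.2 CPM in GF libraries. The groups overlapped at pair B, whose animals were nearly level, and the log2 fold change was 0.95 ± 0.366. Reads of this row cannot be divided among Gm49342, Pnp and the neighbouring copy Pnp2, whose coding bases are 97.9% identical to those of Pnp.

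**Figure D2:**
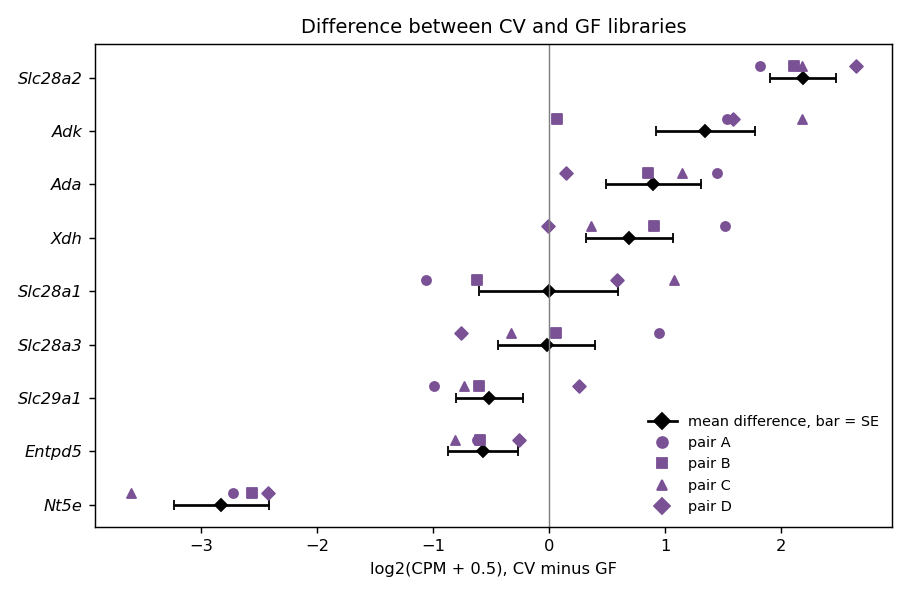
Difference in log2(CPM + 0.5), CV minus GF, for the 9 genes. Black diamonds with bars are the fitted difference and its SE and coloured symbols are the 4 littermate pairs, which keep 1 sign in Slc28a2, Ada, Adk, Entpd5 and Nt5e.

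Of the 10 genes, 7 reached 10 CPM in at least 4 libraries. In the fit over all 10053 genes that did (limma, adjusted p under 0.05, n = 4 per group), 1 of the 7 was higher in CV, Slc28a2, where 1.16% of all tested genes were, and 1 was lower, Nt5e, where 3.76% of all were, and 4.92% passed in either direction. With the littermate pair as a block 2 of the 7 were higher, the added gene being Adk, where 8.08% of all tested genes were, and 1 was lower, where 5.02% were. Since the genes were chosen on this contrast, nothing is read from these counts. The fold change was positive for 4 and negative for 3 of the 7, with a median of 0.69, beside a positive fold change in 70.2% and a median of 0.32 over all tested genes. The CV and GF libraries did not overlap for 2 of the 9 genes with a row, 1 in each direction, beside 14.9% of all tested genes, 9.03% with CV higher and 5.88% with CV lower.

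Levels of different genes were set side by side per kilobase of the longest coding transcript, in CPM per kb. In CV libraries Adk was the most abundant of the 9 genes at 82.8 ± 23.8 CPM per kb, followed by Slc29a1 at 62.0 ± 13.9, and the ranges of these 2 overlapped. Ada, Slc28a2, Entpd5, Nt5e and Xdh followed at means from 13.7 down to 8.33 CPM per kb, with each overlapping its neighbour in the order. Slc28a3 at 2.06 ± 1.19 and Slc28a1 at 0.788 ± 0.365 were lowest, below the range of Xdh.

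In GF libraries the order changed chiefly through Nt5e and Slc28a2. Slc29a1 was first at 88.7 ± 18.1 CPM per kb and Nt5e second at 71.8 ± 50.7, and these did not differ beyond their spread. Adk, Entpd5, Ada and Xdh followed at means from 36.6 down to 4.68 CPM per kb, each overlapping its neighbour. Slc28a2 was at 2.62 ± 0.470 CPM per kb, below the range of Xdh and above that of Slc28a3 at 1.87 ± 0.141. Nt5e thus had rank 6 in CV and rank 2 in GF libraries, and Slc28a2 rank 4 in CV and rank 7 in GF libraries. Lengths are of annotated transcripts, and with the summed exon length in their place some neighbours changed places, such as Adk and Slc29a1 in CV libraries. By that length Nt5e had rank 7 in CV and rank 2 in GF libraries, and Slc28a2 rank 3 in CV and rank 6 in GF libraries.

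**Figure D3:**
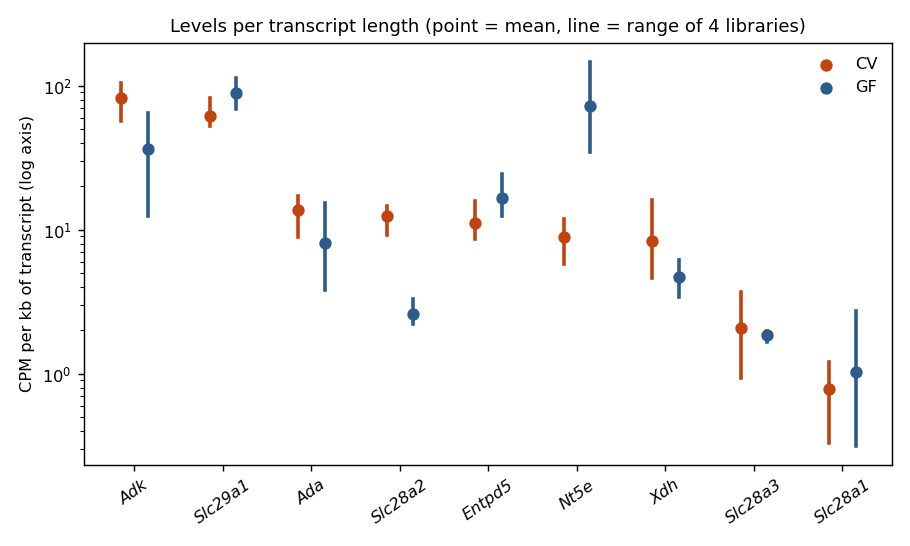
Level of the 9 genes in CPM per kb of the longest coding transcript (log axis), CV at the left and GF at the right of each gene. Points are means and lines the range of the 4 libraries, and the lines of the groups are apart for Slc28a2 and Nt5e.

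Markers of some other cell states differed along with these genes. The 10 enteroendocrine markers summed to 9158 to 23700 CPM in CV libraries and to 37640 to 90100 CPM in GF libraries, with no overlap, and 6 of the 10 were called lower in CV (limma, adjusted p under 0.05) and 0 higher. The 6 proliferation markers summed to 840.7 to 1065 CPM in CV libraries and to 103.1 to 522.5 CPM in GF libraries, and 4 of the 6 were called higher and 0 lower. The 5 villus tip enterocyte markers summed to 266.5 to 1079 CPM in CV and 1126 to 2461 CPM in GF, with 1 called lower. Of the endothelial markers 1 was tested and called lower, and 0 fibroblast markers reached the filter. Of the stem cell markers 1 was called higher, and of the absorptive enterocyte markers 1 was called lower. Of the goblet, Paneth and tuft markers, 0 were called in either direction. Beside these counts, 1.16% of all tested genes were called higher and 3.76% lower, and the groups did not overlap for 14.9%. Among the CV libraries, pair B was lowest and pairs C and D were highest in both Nt5e and the enteroendocrine sum. Among the GF libraries, Nt5e was highest in pair C, while the enteroendocrine sum was highest in pair A. The GF library of pair B was the highest of its group in both Slc28a2 and the proliferation sum. The GF library of pair C had the lowest proliferation sum, and its Slc28a2 level lay between those of the other GF libraries. The part of these markers, and of the endothelial and fibroblast ones, in the values of Nt5e and Slc28a2 was not tested.

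**Figure D4:**
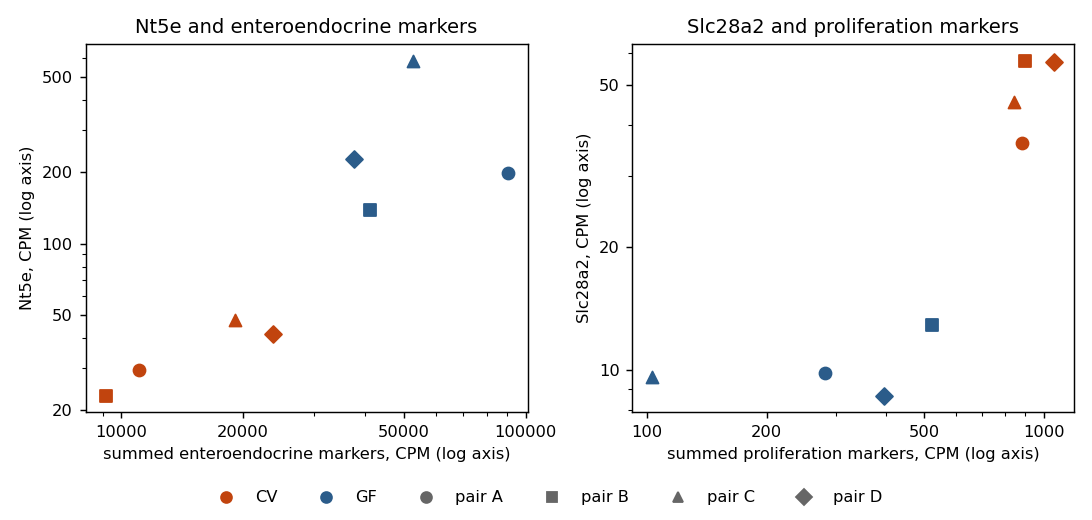
Nt5e against summed enteroendocrine markers (left panel) and Slc28a2 against summed proliferation markers (right panel), all in CPM on log axes, 1 point per library. CV libraries lie at the lower left and GF libraries at the upper right for Nt5e, and CV libraries at the upper right and GF libraries at the lower left for Slc28a2.

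The genes whose log2 levels followed each gene most closely over the 8 libraries are given as a description, since any gene that differs between the groups correlates with it. For Nt5e they were Trim62 (r = 0.993), Cadps (0.990), Tnfrsf11b (0.988) and Syn2 (0.987). Cadps acts in the release of dense-core vesicles and Syn2 is a synaptic vesicle protein. Within the groups r was 0.919 to 0.960 for these 4 genes. Nt5e varied within the GF group chiefly through pair C, at 585.3 CPM against 138.2 to 225.8 CPM in the other GF libraries. The genes were picked by r over the same libraries, so a high r within the groups follows in part from the choice. The same holds for Slc28a2, and a link to a cell type was not tested. Trim62 was at 20.8 CPM in CV and 89.9 CPM in GF on average, and Syn2 at 30.6 CPM in CV and 132.6 CPM in GF. For Slc28a2 the closest were Mns1 (r = 0.993), Npepps (0.975), Rdh10 (0.975) and Psrc1 (0.973), with r of 0.615 to 0.894 within the groups. Mns1 and Psrc1, a protein of the mitotic spindle, were at 13.9 and 27.5 CPM in CV against 4.18 and 7.92 CPM in GF, whereas Npepps and Rdh10 differed less, with log2 fold changes of 0.50 and 0.71.

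A wider list of 91 other genes of purine and nucleoside handling was drawn up by function. Earlier results of these libraries were known when it was drawn up, and 63 of the 91 genes were tested. Of the 63, 0 were called higher in CV (limma, adjusted p under 0.05) and 2 were called lower, beside 1.16% and 3.76% of all tested genes. At an unadjusted p under 0.05, 19 of the 63 were higher, where 19.7% of all tested genes were, and 6 were lower, where 8.12% were. The fold change was positive for 48 of the 63 and the median was 0.52, against 70.2% positive and 0.32 over all tested genes. With the littermate pair as a block 14 were called higher, where 8.08% of all tested genes were, and 3 lower, where 5.02% were. Limma's voom with quality weights called 8 higher and 4 lower, beside 5.52% and 5.50% of all tested genes.

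By role, the medians lay between 0.28 and 0.71. The 17 tested genes of de novo synthesis had a median of 0.71, with 14 positive, and the 21 of salvage and catabolism a median of 0.53, with 16 positive. The 9 ectonucleotidases and phosphatases had a median of 0.60 with 6 positive, the 5 intracellular nucleotidases 0.33 with 4 positive, and the 5 other transporters 0.29 with 4 positive. Of 18 listed adenosine and nucleotide receptors, through which extracellular purines act, 6 were tested, and their median was 0.28, with 4 positive and 0 called. The receptors left out by the filter included Adora2a, an adenosine receptor, which is named here after its values were seen. Adora2a was at 3.36, 1.35, 4.62 and 4.08 CPM in the CV libraries of pairs A to D, against 17.2, 9.88, 17.1 and 19.2 CPM in the GF libraries. Every CV library was below every GF library, and with the minimum lowered to 1 CPM the log2 fold change was -2.14 ± 0.429 (SE). Since Adora2a was picked by its values, this is a description and no test. Adora3, also left out by the filter, was lower in every CV library than in every GF library too. Its level was low, with means of 0.629 CPM in CV and 2.87 CPM in GF, from about 2 to 46 reads per library. Among all tested genes, 5.88% did not overlap with CV lower and 9.03% with CV higher. These shares are over genes that passed the filter, which Adora2a and Adora3 did not. In the wider list, the groups of the 63 tested genes were apart for 7 with CV higher and for 5 with CV lower.

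Entpd3, an ectonucleotidase that hydrolyses ATP and ADP and so acts ahead of Nt5e, fell in CV. It was at 5.42, 6.81, 6.39 and 11.4 CPM in the CV libraries of pairs A to D, against 28.1, 13.9, 27.2 and 36.5 CPM in the GF libraries. All CV libraries were below all GF libraries, and the gene reached the filter through its 4 GF libraries and 1 CV library. The log2 fold change was -1.73 ± 0.371 (SE), with an adjusted p of 0.0184 (limma, n = 4 per group), and CV was lower in 4 of 4 pairs. It was no longer called without the CV library of pair B (adjusted p = 0.0592) or pair C (0.0636), or without the GF library of pair A (0.0685). Entpd2 went the other way with groups apart, averaging 25.9 CPM in CV and 11.8 CPM in GF. Entpd8 averaged 132.5 CPM in CV and 88.05 CPM in GF, with overlap. Neither Entpd2 nor Entpd8 was called (adjusted p = 0.138 and 0.1965 by limma). Of the 9 tested ectonucleotidases and phosphatases, groups were apart for 2 with CV higher and for 2 with CV lower.

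Impdh1, an isoform of the enzyme that commits IMP to guanine nucleotides, fell as well. It was at 51.5, 44.9, 39.4 and 69.3 CPM in CV libraries and at 113.7, 80.8, 122.8 and 111.4 CPM in GF libraries, with no overlap. The log2 fold change was -1.07 ± 0.276, with an adjusted p of 0.0397 (limma, n = 4 per group). Of the 8 fits that left out 1 library, 3 called it, and it was not called with no filter on low values (adjusted p = 0.141) or with the minimum at 1 CPM (0.0568).

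Hprt and Aprt, which recycle purine bases, did not pass the test. Hprt averaged 122.0 ± 24.1 CPM in CV and 81.8 ± 29.9 CPM in GF (SD, n = 4 each), with a log2 fold change of 0.64, or 0.37 without the GF library of pair C, and an adjusted p of 0.208 by limma. Aprt, which salvages adenine, averaged 271.1 ± 80.9 CPM in CV and 122.9 ± 72.7 CPM in GF (SD, n = 4 each), with a log2 fold change of 1.39 ± 0.497 and an adjusted p of 0.116 by limma, or 0.0415 with the littermate pair as a block and 0.0477 without the GF library of pair B. Without the GF library of pair C the log2 fold change of Aprt was 0.81, and without that library and the CV library of pair A it was 0.72. As with Adk, the GF library of pair C was lowest for Aprt, at 29.8 CPM, and the GF library of pair B, at 202.5 CPM, reached the CV range.

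Pnp2, the close copy of Pnp, averaged 62.2 ± 36.9 CPM in CV and 34.3 ± 16.8 CPM in GF (SD, n = 4 each), with an adjusted p of 0.215 by limma. Enpp3, a surface phosphodiesterase and also 1 of the villus tip markers, averaged 13.8 ± 10.1 CPM in CV and 13.0 ± 3.20 CPM in GF, with an adjusted p of 0.848 by limma. Its CV libraries spread widely, between 4.81 CPM in pair C and 27.8 CPM in pair A.

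**Figure D5:**
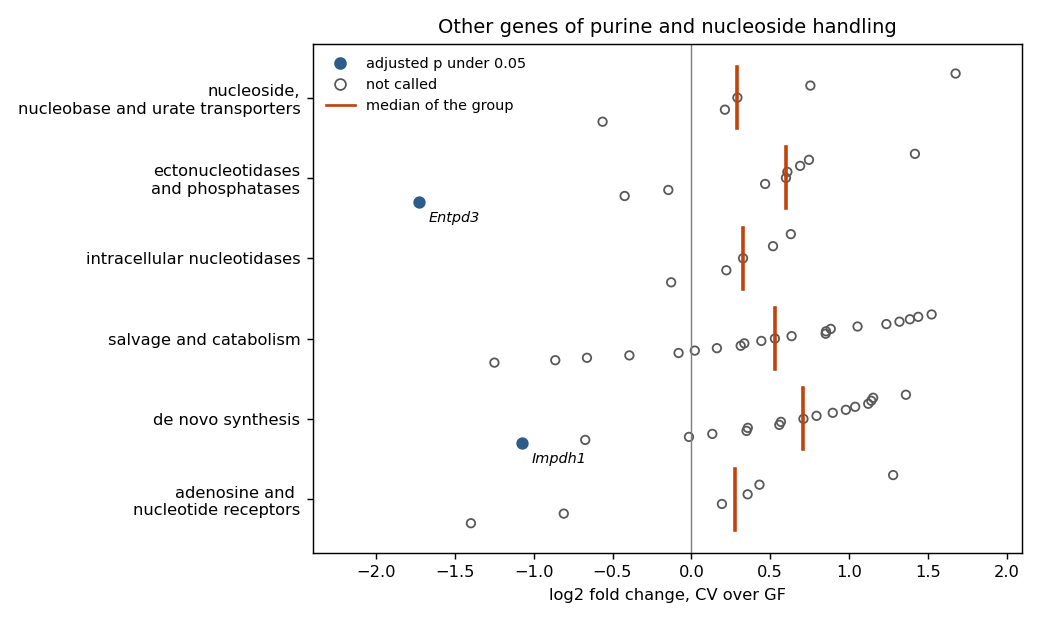
Log2 fold change, CV over GF, of the 63 tested genes of the wider list, by role. Filled points had an adjusted p under 0.05 (limma, n = 4 per group), open points did not, and the vertical bars are the medians of each role, all above 0.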

How the data were processed

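Sorted jejunal epithelial cells of 8 animals were profiled by RNA-seq from 10 ng of total RNA with the SMARTer and Nextera XT kits, as 100 bp single-end reads, 4 libraries per lane, per the labels' protocols. Tools given in the submitters' processing notes are STAR 2.4.2a and Trimmomatic 0.36, with DESeq2 1.12.4 in R 3.3.1, and the build is mm10. The authors' design text also names Salmon, edgeR and a floor of 10 CPM. Lanes of single libraries are not given in the sources used.

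The authors deposited 1 normalized signal value per gene and library. Values are whole multiples of 1 step per library (0.736 to 1.35) within 0.02 for 98.8% to 99.8% of values in genes with 1 annotated transcript, and for 21.0% to 24.0% in genes with several, so whole reads cannot be recovered and count tests were not run. All 8 columns were mapped to libraries by label titles. Of 48440 genes, 48058 matched a GENCODE M21 symbol and 10128 were at 0 in every library.

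Values were scaled by TMM, trimming 30% of log ratios and 5% of intensities. Genes reaching 10 CPM in 4 or more libraries (10053) were fitted as log2(CPM + 0.5) with limma 3.58.1 in R 4.3.3 (robust empirical Bayes with a trend, and condition alone as a term). The p-values are two-sided, adjusted by the Benjamini-Hochberg method over all tested genes and called under 0.05. The fit was also run on simulated data with independent noise for each gene and library. That simulation held no pair effect and no outlying library, so it does not bear on those. Read numbers are approximate (deposited total divided by the step). PCR reads without molecular identifiers are not independent molecules.

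The labels' littermate pairs pair the libraries by design. Deviations from the group means correlated at 0.14 in pair A, -0.16 in B, 0.31 in C and -0.01 in D. The pair as a block was an alternative, as were other scalings, pseudocounts and filters, voom, and fits without 1 library.

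The 10 genes, the wider list and the markers were chosen with earlier results of these data known. Named from the wider list were Hprt, Aprt, Pnp2, Enpp3 and every gene called. Adora2a, Adora3, Slc29a4, Entpd2 and Entpd8 were named after their values were seen. For likeness, the 4 genes with the highest Pearson r over 8 libraries were named, without placeholder symbols. Promoters (9 of the 10 genes matched) and their sequences are from RefSeq, GRCm38.p6, and coding sequences from the GENCODE M21 annotation of GRCm38.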

Additional observations from a re-analysis of the deposited data

Results flagged for a closer look

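In 5 of 54 groups of 4 libraries examined, covering the genes and marker sums described, 1 library lay farther from the others than Dixon's 95% critical value allows. Chance alone gives about 1 in 20 groups where values are normal and groups independent. The groups here are CPM values of the same 8 libraries, so that rate need not hold. Slc28a1 was at 7.93 CPM in the GF library of pair A, against 0.921 to 1.75 CPM in the other GF libraries. Slc29a1 was at 183.2 CPM in the CV library of pair D, where the other CV libraries had 116.4 to 125.2 CPM. Xdh was at 73.9 CPM in the CV library of pair A, and at 21.4 to 29.9 CPM in the others of its group. The summed absorptive enterocyte markers reached 3254 CPM in the GF library of pair A, against 995.3 to 1231 CPM in the other GF libraries. The summed goblet markers reached 50800 CPM in the CV library of pair A, against 1569 to 6132 CPM in the other CV libraries.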

How the results depend on the processing

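The 10 genes were chosen on this contrast, so their calls under other settings of the same libraries are no sign of stability. Over 18 alternatives Slc28a2 and Nt5e kept their direction. Slc28a2 lay between 1.96 and 2.31 on the log2 scale and Nt5e between -3.14 and -2.34. Slc29a1, Entpd5, Ada, Adk and Xdh also kept their direction in all 18. Of the 10 genes, 1 was called higher, against 2 with the littermate block (Adk), with voom (Ada) and without the GF library of pair B (Adk), so 1 to 2 without 1 library. Genes of the wider list called higher numbered 0, against 14 with the block, 8 with voom, 1 with upper-quartile scaling and 0 to 4 without 1 library. Those called lower numbered 2, against 4 with library size only, 4 with voom and 0 to 3 without 1 library. Among the named genes the block changed the call of Adk and Aprt only. Enpp3 (-0.15) turned positive with voom (0.17) and ran between -0.59 and 0.24 without 1 library, the positive value being without the CV library of pair C. The cause was not tested. Over all genes, 117 were higher and 378 lower. The count higher was 812 with the block, 263 with upper-quartile scaling, 45 with no filter, 555 with voom and 235 without the CV library of pair A and the GF library of pair C, and it ran between 14 and 410 without 1 library, where the count lower ran between 151 and 372, and it was 407 without both of those libraries. The share of higher among calls was 23.6%, against 39.2% with upper-quartile scaling, 50.1% with voom, 61.7% with the block, 12.6% with no filter and 5% to 52.4% without 1 library. TMM scaling put the median of all genes at 0.32, and library size only at 0.09. Summing Slc28a2 with Gm14085, an alternative chosen after seeing the data, gave 2.13. Depth limits Slc28a1, with 8 to 62 reads per library.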
